A study of Mus musculus with 10 samples.

Results

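This account concerns open chromatin in mouse Th17 cells that lacked pyruvate dehydrogenase, set against control Th17 cells, when both were cultured with acetate. Its members were the 4 acetate libraries of 10 in all, chosen by their labels: WT acetate 1 and 2, and KO acetate 1 and 3. All 39657 sites of the deposited table were used. Naive CD4+ T cells came from spleen and lymph nodes of PDHfl/fl mice (WT) or of PDHfl/fl mice that carried CD4 Cre (KO). Both groups therefore held the floxed allele, and the KO cells alone held the Cre transgene. The cells were driven towards the Th17 fate for 3 days with antibodies to CD3 and CD28, IL-6, TGFβ and an antibody to interferon gamma, in 10 mM sodium acetate. The 6 libraries without acetate, 3 WT and 3 KO, served for background. Ages and sexes of the mice are not given in the sources used here. The labels do not state whether the replicates stem from different mice, so the p-values measure spread between libraries, not between mice. The test also pools that spread across sites, so the smallest p-values rest on this pooling as well as on the few libraries compared.

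Th17 cells are helper T cells that make interleukin-17. Mitochondrial pyruvate dehydrogenase makes acetyl-CoA from pyruvate, which feeds the citrate that is exported and cleaved by ATP-citrate lyase (Acly) to give acetyl-CoA for histone acetylation and lipid synthesis. Acetate enters through monocarboxylate transporters such as Slc16a1 and is made into acetyl-CoA by Acss2 without that enzyme. ATAC-seq reads how readily a transposase cuts chromatin, and acetylated histones are a known mark of open regulatory DNA. In the gene symbols below, a site carries the name of the protein-coding gene with the nearest body, up to 50 kb away, which does not show that it regulates that gene.

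Reads in sites were 3500172 in WT acetate 1, 13356560 in WT acetate 2, 11047781 in KO acetate 1 and 5640663 in KO acetate 3, with medians of 57, 233, 191 and 94 reads per site. The values analysed are the authors' signal, reads divided by a factor per library, and "equal medians" below means that these values were rescaled so that all libraries had the same median over sites. Mitochondrial DNA took 0.201 to 0.463% of the signal in the 4 libraries. At the Pdha1 site (X:160136288-160136488), in the gene of a catalytic subunit, the WT acetate libraries had 52.3 and 66.7 of signal and the KO acetate libraries 75.9 and 54.3, beside 119.9, 89.4 and 112.8 in untreated WT and 55.4, 43.9 and 68.6 in untreated KO. The 2 acetate groups overlapped there. The labels do not say which exon or gene is floxed, so this site is no check of the deletion. Sites were found at all 6 T cell markers and at all of Il17a, Il17f, Il23r and Ccr6 as Th17 markers, at 2 of 5 B cell, 3 of 5 myeloid and 1 of 2 NK markers, and at 0 of the 2 CD8 markers. Cd79a, Cd79b, Ms4a1, Lyz2, Csf1r, Ncr1, Cd8a and Cd8b1 had no site in the table. How its sites were chosen is not given, so a missing site does not show that the place was closed. Summed signal with acetate was 14321 to 14732 in WT and 11536 to 13736 in KO over the 58 sites of the T cell markers other than Cd4, and 15213 to 15655 and 16966 to 20633 with Cd4 included. It was 5219 to 5289 in WT and 3813 to 4886 in KO over the 21 sites of the Th17 markers, and 1608 to 1898 and 1306 to 1599 over the 6 of the myeloid markers. The B cell markers gave 1516 to 1735 and 1290 to 1550, and the NK markers 2088 to 2406 and 1884 to 2278. These are deposited values, and signal over all sites was also lower in KO on average (given below); the part of marker levels in the results was not tested. In such bulk libraries, fewer cells with an open site and a less open site in each cell cannot be told apart.

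Among the sites of the deposited table, KO Th17 cells with acetate had higher ATAC-seq signal than control cells at 2 places that passed the test. Places without a site in that table were not tested. One was Cd4, the co-receptor gene that marks helper T cells, where 6 sites in the gene and 1 site between Cd4 and its neighbour Lag3 were 4.50 to 25.1 times higher. The other was a pair of sites on chromosome 3 within the long noncoding RNA gene Gm553061, 7.65 and 13.3 times higher. No site passed the test in the other direction. With the acetate libraries fitted alone, 4 sites were called lower as deposited and 0 with equal medians. The loci of the Th17 cytokines and receptors, and those of enzymes that make acetyl-CoA, held no site that passed it.

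The test was limma on log2(signal + 1) over all 39657 sites, with p-values adjusted by Benjamini-Hochberg and a call at an adjusted p under 0.05. It called 9 sites higher (0.0227% of those tested) and 0 lower in KO with acetate. At an unadjusted p under 0.05, 194 sites were higher (0.489%) and 720 lower (1.82%) on the deposited scale, and 553 higher (1.39%) and 310 lower (0.782%) with equal medians. The balance between higher and lower sites at that level turned with the scaling. Both KO libraries lay below both WT libraries at 30.3% of all sites as deposited and at 15.8% with equal medians, the background for each site below whose groups did not overlap with KO lower.

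The 6 Cd4 sites lay in the higher-coordinate part of the gene body (6:124864693-124888247). At 6:124882242-124882442 signal was 36.9 and 40 in the WT libraries and 610.4 and 559.6 in the KO libraries. Every KO library was thus far above every WT library, and the log2 difference was 3.89 ± 0.28 (SE, n = 2 per group, limma adjusted p = 5.84e-27). With equal medians that adjusted p was 1.64e-08 (limma), so its size depends on the scaling. At 6:124885264-124885464, the site of highest signal in the gene, values were 572.3 and 568.0 in WT and 4398 and 3543 in KO, a log2 difference of 2.79 ± 0.20 (adjusted p = 5.88e-27, limma).

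The other 4 Cd4 sites were also higher in KO. At 6:124879835-124880035 WT values were 24.6 and 14.0 and KO values 497.9 and 337.9, and the log2 difference of 4.39 ± 0.56 had an adjusted p of 0.0246 (limma). At 6:124880802-124881002 WT values were 6.15 and 5.62, which came from 2 and 8 reads, and KO values 189.3 and 105.6. The log2 difference was 4.37 ± 0.43, and its size rests on those few WT reads. Near the gene's higher-coordinate end, 6:124887316-124887516 had 15.4 and 18.3 in WT against 225.1 and 144.8 in KO, a log2 difference of 3.35 ± 0.34. The site across that end, 6:124888183-124888383, had 163.1 and 134.1 against 867.0 and 633.5, a log2 difference of 2.32 ± 0.25. In neither site did the groups overlap.

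**Figure D1:**
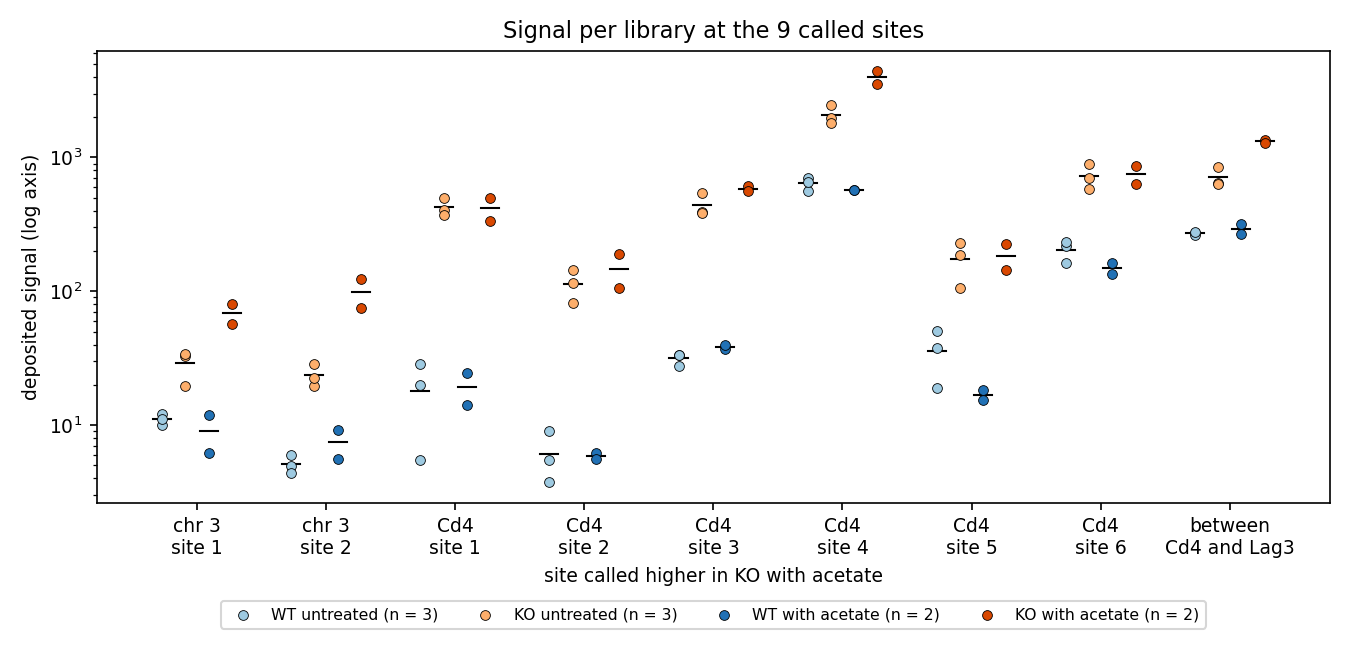
Signal per library (vertical axis, deposited values, log axis) at the 9 sites called higher in KO with acetate, in the order of their coordinates. Points are libraries and bars are group means; the KO libraries lie above the WT libraries at each site, with acetate and without.

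The remaining site on chromosome 6 lay between Cd4 and Lag3, which encodes an inhibitory receptor. At 6:124900561-124900761, 3598 bp from Lag3, signal was 267.7 and 318.0 in WT and 1360 and 1278 in KO, a log2 difference of 2.17 ± 0.24 (limma adjusted p = 8.76e-13). The other 13 sites within 50 kb of Cd4 did not share this difference: their log2 differences ran from -0.51 to 0.30 with a median of -0.22, near the -0.15 of all sites. With equal medians that median was -0.06. They include a site at 6:124895903-124896103, between the called sites, with 76.9 and 73.7 in WT and 65.6 and 67.9 in KO. They also include 6:124864456-124864656, just outside the opposite end of Cd4, with 27.7 and 38.6 in WT and 43.5 and 37.7 in KO. At the first of these, the log2 difference was -0.17, so the raised signal was not continuous from Cd4 to the site near Lag3.

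The 7 called sites of this region took 0.0101 and 0.0117% of a library's summed signal in the WT libraries and 0.0865 and 0.0776% in the KO libraries, shares that do not depend on the authors' factors. The exact permutation test gave p = 0.333, the smallest that 2 libraries against 2 allow. The 7 sites were chosen for being higher in KO in these same libraries, so that outcome followed from the choice and lends no support. Without acetate the shares were 0.0115, 0.0118 and 0.0118% in WT and 0.0776, 0.0647 and 0.0795% in KO. The Cd4 regulatory sequence in the Cre transgene is present in KO cells alone, and reads from it and from the Cd4 gene itself cannot be told apart in these counts. No genome sequence of the Cd4 sites was used here.

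**Figure D2:**
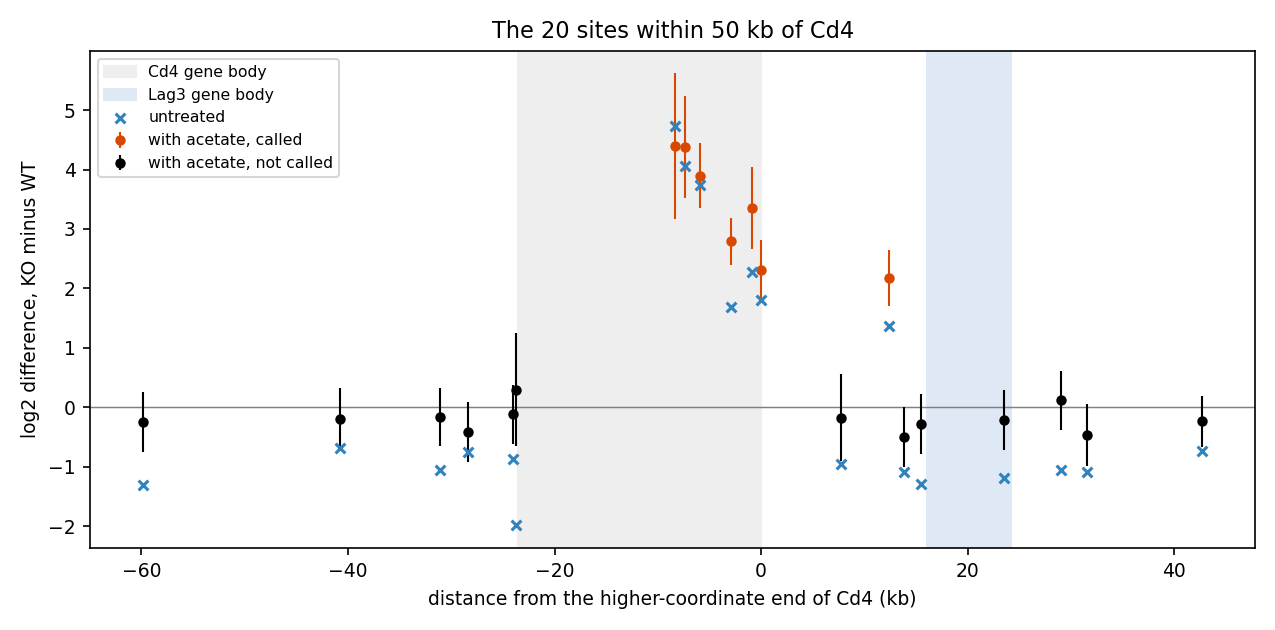
Log2 difference KO minus WT (vertical axis) at the 20 sites within 50 kb of Cd4, against the distance in kb from the higher-coordinate end of the gene; shaded bands are the Cd4 and Lag3 gene bodies. Circles with 95% intervals are cultures with acetate (orange, called; black, not called) and crosses are untreated cultures; the 7 called sites stand at 2.17 or more, and the 13 others at 0.30 or less.

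On chromosome 3 the 2 called sites lay in the body of the noncoding gene Gm553061 (3:60781484-60868820), and the first of them also in Gm38326, another noncoding gene. At 3:60790238-60790438 signal was 6.15 and 11.9 in WT and 81.0 and 57.3 in KO, a log2 difference of 2.85 ± 0.48 (limma adjusted p = 8.56e-05). At 3:60795381-60795581 it was 9.23 and 5.62 in WT and 122.8 and 75.4 in KO, a log2 difference of 3.56 ± 0.52 (limma adjusted p = 6.50e-07). With equal medians the adjusted p-values of the 2 sites were 0.0147 and 0.00154 (limma). The groups did not overlap at either site. WT acetate 1 held 2 and 3 reads at these sites, so the folds rest on few WT reads. The nearest protein-coding genes, Mbnl1, a splicing regulator (3:60472559-60629750), and P2ry1, a receptor for ADP (3:61002785-61008982), lay over 50 kb away on either side.

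Around the pair, 19 neighbouring sites over 674.5 kb (3:60362817-61037280) had been called higher in untreated KO cells, where 9.07% of all sites were called higher. With acetate 17 of the 19 did not pass the test, and all 17 had a log2 difference above 0, from 0.06 to 1.48 with a median of 0.54. Above 0 stood 21.4% of all sites. With equal medians all 19 were again above 0, against 50.8% of all sites, and their median was 0.75 with acetate and 1.73 without. The KO and WT groups did not overlap, KO higher, at 16 of the 19 sites, and at 17 with equal medians, where all sites did so in 4.63% and 13.8%. The 19 include the 2 called sites and were chosen for being higher in untreated KO. All sites are thus an unlike background, and an excess over them was favoured by that choice.

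Individual sites of the stretch show how uneven it was. At 3:60762949-60763149, between Mbnl1 and the called pair, WT values were 27.7 and 34.4 and KO values 89.5 and 86.0. That site had an adjusted p of 0.188 (limma) and a log2 difference of 1.48 ± 0.36. At 3:60788123-60788323, the site of highest signal in the stretch, values were 793.8 and 648.0 in WT and 1081 and 909.5 in KO, a log2 difference of 0.47. There the groups did not overlap. At 3:60438791-60438991 the groups overlapped, with 255.4 and 222.6 in WT and 225.9 and 273.0 in KO. This last site had been higher in untreated KO by 1.68 on the log2 scale with equal medians. Since the 19 sites were chosen for being higher in untreated KO, no count of interaction calls over them is given.

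**Figure D3:**
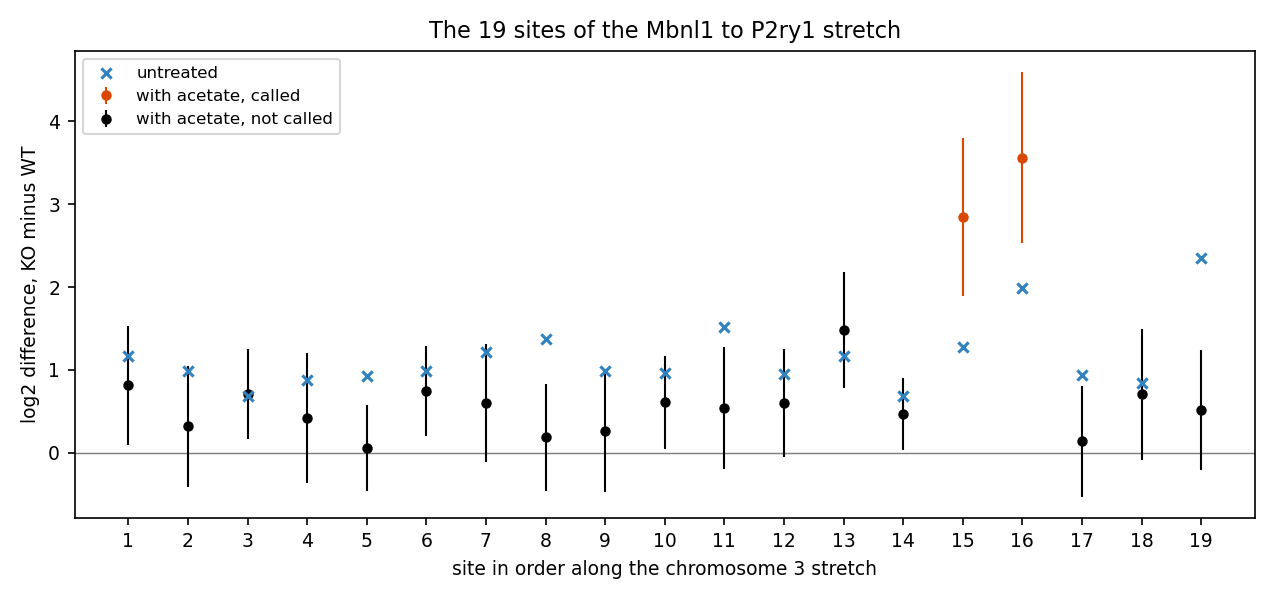
Log2 difference KO minus WT (vertical axis, deposited scale) at the 19 sites of the chromosome 3 stretch, numbered in order along the chromosome. Circles with 95% intervals are cultures with acetate and crosses are untreated cultures; all 19 circles lie above 0, and the 2 called sites, numbers 15 and 16, stand above the rest.

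Across the whole table the difference between libraries of different genotype was near that between libraries of 1 genotype, and how near depended on the scaling. With equal medians the median absolute log2 difference was 0.229 between the WT libraries and 0.193 between the KO libraries. For the 4 pairs of a KO and a WT library it was 0.155, 0.198, 0.2001 and 0.223, and the lowest, KO acetate 1 against WT acetate 2, joined the libraries with the most reads. All 4 values were under that of the WT pair, and 3 of the 4 were above that of the KO pair. As deposited, the WT pair had 0.243 and the KO pair 0.228, against 0.155, 0.255, 0.256 and 0.353 between genotypes, so that 3 of the 4 were above both. With equal medians the first principal component of the 4 libraries (48.4% of their variance) set WT acetate 1, the library with the fewest reads, apart from the other 3, and the second (31.0%) set KO acetate 3 apart. Neither separated the genotypes. As deposited, the first component (52.3%) placed both WT libraries (loadings 0.79 and -0.06) above both KO libraries (-0.13 and -0.60), with WT acetate 2 and KO acetate 1 close together.

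**Figure D4:**
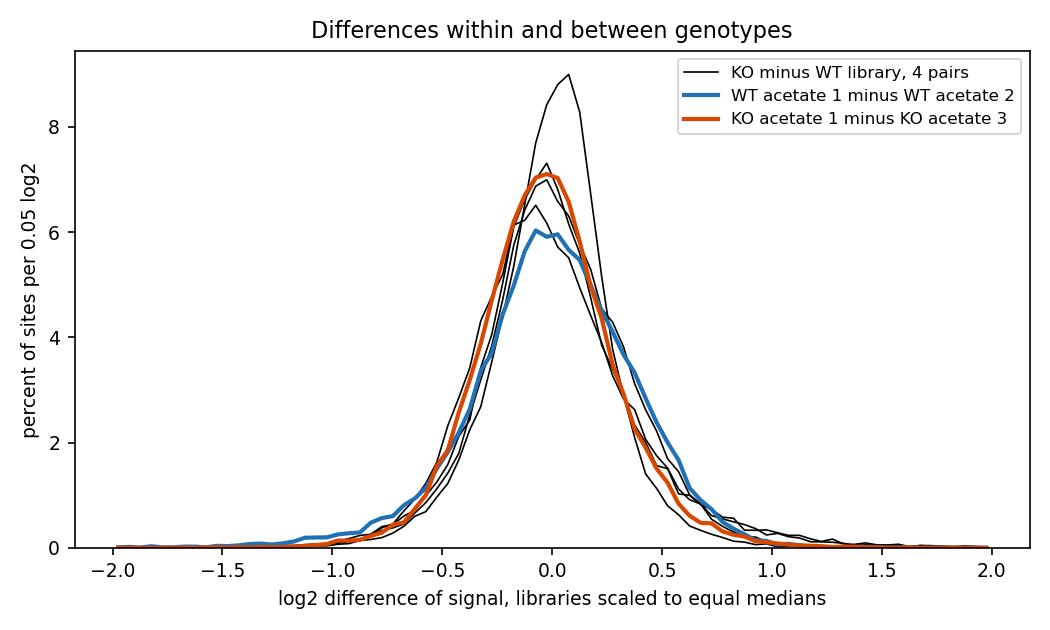
Distribution over all sites of the log2 difference between single libraries scaled to equal medians (horizontal axis, shown from -2 to 2; vertical axis, percent of sites per step of 0.05). Thin black lines are the 4 pairs of a KO and a WT library, and coloured lines are the pairs within WT and within KO; the black lines are about as wide as the coloured ones.

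On the deposited scale the median log2 difference of all sites was -0.15, a fold of 0.900, and with equal medians it was 0.00. Total signal in sites was 10.8 and 9.38 M in WT and 9.42 and 8.51 M in KO, a fold of 0.890 (two-sided exact permutation p = 0.667, where 0.333 is the smallest possible). The groups overlapped in total signal. With equal medians and the outer 5% of sites on each side set aside, differences ran from -0.35 to 0.42, and 162 sites (0.409%) differed by more than 1 on the log2 scale. With equal medians the 95% interval of the difference lay wholly inside a 2-fold change at 88.1% of sites and inside a 1.5-fold change at 43.2%. As deposited, the scale of the main test, these shares were 83.4% and 12.5%.

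Sites within 1 kb of a gene end had a median difference of 0.03 with equal medians, and sites in gene bodies, between genes and over 50 kb from a protein-coding gene had -0.01 each. The medians of the 20 chromosomes other than mitochondrial DNA ran from -0.01 on chromosome 10 to 0.01 on chromosome 12, and that of the X chromosome lay inside this range. Sites at an unadjusted p under 0.05 were most frequent among the 7932 sites with the least signal, with 299 higher and 101 lower, and numbered 4 and 9 among the 7932 with the most. Among the weakest sites the median site held 16 reads in WT acetate 1. Of the 553 sites that were higher at this level, WT acetate 1 was the lower of the WT libraries at 464 (83.9%), against 48.9% of all sites. Of the 310 that were lower, it was the higher of the WT libraries at 192 (61.9%), against 51.1% of all sites. The 553 and 310 were picked by their difference from WT and all sites were not, so these backgrounds are unlike.

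Genes of the Th17 programme came next. The cytokine genes Il17a, Il17f and Il21 and the receptors Il23r and Ccr6 held 32 sites, of which 0 were called and 0 had an unadjusted p under 0.05. On the deposited scale 30 of the 32 differences were below 0, as were 78.6% of all sites, with a median of -0.27. With equal medians 24 were below 0, against 49.2% of all sites, and the median was -0.11. Il22 had no site within 50 kb.

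A measured site lay just before the start of Il17f. Sites covered the start of Il23r, like Il17f a gene that defines the lineage, and that of Acly, which turns exported citrate into acetyl-CoA. The sequences below run from 250 bases before to 50 after each start and are RefSeq's on GRCm38.p6, 5′ to 3′ on the gene's strand, here the minus strand for each. They are shown because each holds a site whose values follow. Capitals mark matches on either strand to AGGTCA (a nuclear receptor half-site), TGANTCA (AP-1), TGTGGT (RUNX) and TTCNNNGAA (STAT), which do not overlap one another here. The table of promoters held no entry for Cd4 or Lag3.
Il17f promoter, chr1:20784221-20784520: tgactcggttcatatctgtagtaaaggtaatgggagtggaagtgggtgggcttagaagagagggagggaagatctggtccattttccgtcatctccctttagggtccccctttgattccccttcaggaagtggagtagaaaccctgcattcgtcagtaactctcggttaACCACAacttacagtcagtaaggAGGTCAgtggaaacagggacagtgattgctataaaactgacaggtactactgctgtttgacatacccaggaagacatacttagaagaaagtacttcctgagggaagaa
Il23r promoter, chr6:67491806-67492105: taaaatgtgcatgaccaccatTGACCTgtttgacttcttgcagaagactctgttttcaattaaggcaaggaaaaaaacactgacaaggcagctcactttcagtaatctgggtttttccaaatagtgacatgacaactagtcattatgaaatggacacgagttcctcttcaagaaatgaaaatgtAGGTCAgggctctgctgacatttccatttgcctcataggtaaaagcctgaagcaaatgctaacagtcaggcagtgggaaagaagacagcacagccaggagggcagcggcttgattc
Acly promoter, chr11:100527951-100528250: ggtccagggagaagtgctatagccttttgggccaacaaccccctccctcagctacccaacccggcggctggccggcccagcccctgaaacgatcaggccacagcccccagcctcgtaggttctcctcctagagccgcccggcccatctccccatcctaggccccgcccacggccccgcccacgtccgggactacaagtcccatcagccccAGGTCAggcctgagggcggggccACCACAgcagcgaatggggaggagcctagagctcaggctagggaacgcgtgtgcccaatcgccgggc

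The nuclear receptor letters matched once in the Il17f window, in 2 places in that of Il23r and once in that of Acly, and 16.3% of the 32851 promoters in the table held at least 1 such match. The RUNX letters matched once in Il17f and once in Acly, against 16.8% of all promoters, and the AP-1 and STAT letters in none of the 3, against 7.81% and 8.30%. G and C made up 46.3% of the Il17f window, 43.0% of that of Il23r and 68.7% of that of Acly, where the median of all promoters was 52.7%. A match is a run of letters, not a shown binding site.

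At the Il17f promoter site (1:20784321-20784521), which shares 200 bp with that window, signal was 326.1 and 315.9 in WT and 329.1 and 238.3 in KO. The KO values lay on both sides of the WT values, and the log2 difference was -0.20 ± 0.27. At the Il23r promoter site (6:67491830-67492030), wholly inside the window, it was 243.1 and 254.1 in WT and 205.5 and 202.1 in KO. Those groups did not overlap, yet the difference of -0.29 ± 0.27 did not pass the test (limma adjusted p = 0.993), and it was -0.13 with equal medians. At the Acly site (11:100527888-100528088), which shares 138 bp with its window, it was 1105 and 810.9 in WT and 795.4 and 892.9 in KO. The groups overlapped, with a log2 difference of -0.17 ± 0.22.

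Il17a encodes the signature cytokine of the lineage. Its 7 sites had log2 differences from -0.43 to -0.02, and from -0.27 to 0.14 with equal medians. The site of lowest p, 1:20731611-20731811 at a gene end, had 200 and 186.0 in WT and 160.3 and 128.2 in KO, a difference of -0.43 ± 0.27 (95% interval -0.96 to 0.11). The KO libraries were the lower ones, by less than the interval can resolve. At Il17f, the neighbour of Il17a, the site of lowest p (1:20787081-20787281) had 144.6 and 116.5 in WT and 104.9 and 98.0 in KO, a difference of -0.35 ± 0.30.

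The receptor genes gave values of like size. At Il23r, the receptor that stabilises the Th17 fate, 6:67481979-67482179 had 196.9 and 238.0 in WT and 168.8 and 140.3 in KO, a log2 difference of -0.49 ± 0.28 and of -0.33 with equal medians. All 7 Il23r sites were below 0 as deposited and 6 with equal medians. Ccr6, the chemokine receptor found on these cells, had 415.4 and 370.0 in WT and 293.3 and 267.0 in KO at 17:8251819-8252019, a difference of -0.48 ± 0.27. Among its 3 sites the differences ran from -0.48 to 0.08.

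Il21 encodes a cytokine that Th17 cells make and respond to. Its 11 sites had a median difference of -0.23, and of -0.08 with equal medians. At 3:37231240-37231440 signal was 630.8 and 680.3 in WT and 534.5 and 432.9 in KO, a difference of -0.44 ± 0.24 (95% interval -0.91 to 0.02). The KO libraries were lower at this site, and the difference did not pass the test.

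**Figure D5:**
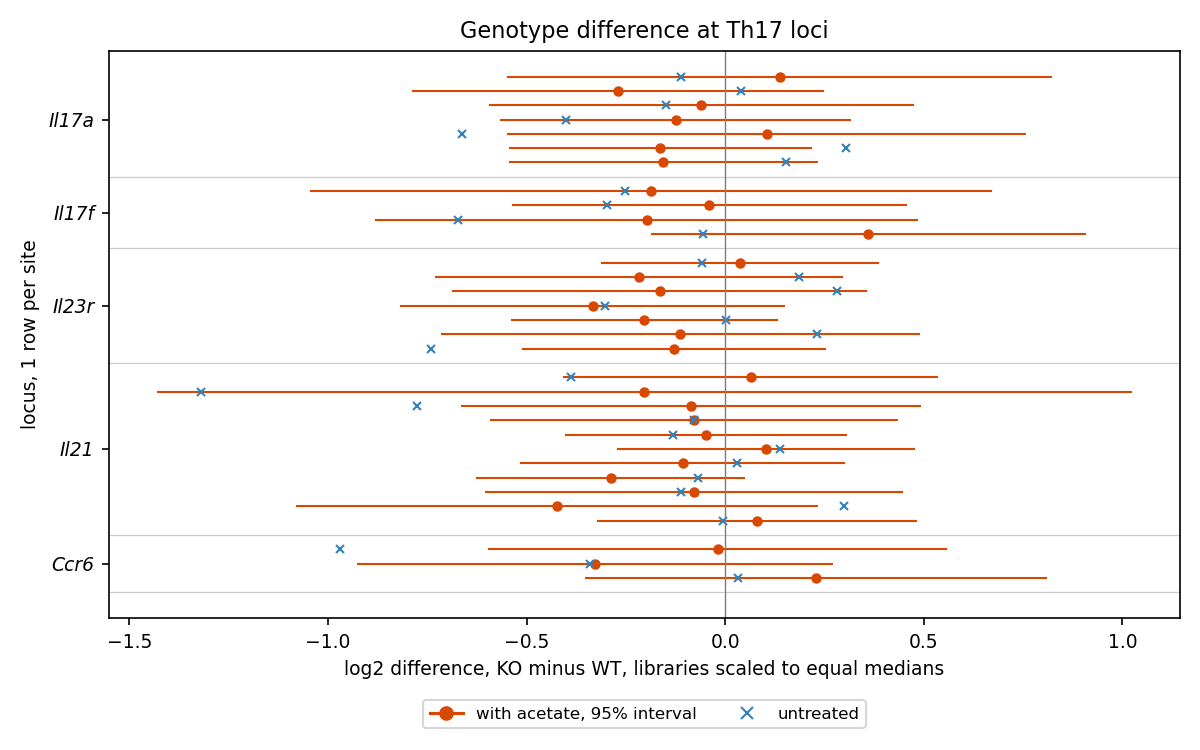
Log2 difference KO minus WT with libraries scaled to equal medians (horizontal axis), 1 row for each of the 32 sites of 5 Th17 loci. Circles with 95% intervals are cultures with acetate and crosses are untreated cultures; every interval with acetate includes 0.

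Regulators of other T cell fates showed the same lack of calls. Gata3, which directs the Th2 fate, had 11 sites, and at 2:9875909-9876109 signal was 347.7 and 300.5 in WT and 190.1 and 221.7 in KO. The groups did not overlap there, with a log2 difference of -0.65 ± 0.26 and a 95% interval of -1.16 to -0.14 that gave an unadjusted p of 0.0124 (limma, adjusted 0.993), while the median of the 11 was -0.18. The single site at Foxp3, the regulator of regulatory T cells, had 58.5 and 57.6 in WT and 33.2 and 43.7 in KO, a difference of -0.59 ± 0.36. Both KO libraries were lower at Foxp3, by an amount whose interval (-1.31 to 0.12) includes 0.

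At the Th1 loci, the 5 sites of the cytokine gene Ifng had a median of -0.16, near the -0.15 of all sites, and 10:118470749-118470949 had 332.3 and 297.7 in WT and 282.2 and 248.9 in KO. Tbx21, which directs the Th1 fate, had 40 and 55.5 in WT and 72.5 and 45.2 in KO at 11:97114384-97114584, and the groups overlapped. Il2ra, a subunit of the interleukin-2 receptor, had 169.2 and 122.9 in WT and 109.1 and 102.6 in KO at 2:11662237-11662437, a difference of -0.44 ± 0.28. At Tcf7, a regulator of naive and memory T cells, 11:52294192-52294392 had 292.3 and 296.3 in WT and 261.7 and 167.4 in KO, a difference of -0.49 ± 0.26. Over the 9 Il2ra and 17 Tcf7 sites the medians were -0.20 and -0.16, or -0.04 and 0.00 with equal medians.

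Among genes that handle acetate, the single site at Acss2 had 64.6 and 70.2 in WT and 65.7 and 61.8 in KO. The groups overlapped, and its log2 difference of -0.08 ± 0.34 turned to 0.08 with equal medians. Slc16a1, a carrier of lactate, pyruvate and acetate, had 6 sites with a median of -0.26. At 3:104670326-104670526, 11864 bp from that gene, signal was 187.7 and 163.6 in WT and 113.4 and 104.1 in KO. The groups did not overlap, and the difference of -0.68 ± 0.30 had an unadjusted p of 0.0222 (limma, adjusted 0.993), or -0.53 with an unadjusted p of 0.0559 with equal medians.

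The genes of the pyruvate dehydrogenase complex with its kinases and phosphatases held 25 sites at 10 of 14 genes, of which 0 were called. At Pdhx, which holds the complex together, 2:102986557-102986757 had 240.0 and 210.6 in WT and 153.5 and 129.7 in KO, a log2 difference of -0.67 ± 0.31. At Pdk1, a kinase that inactivates the complex, 2:71941492-71941692 had 415.4 and 412.8 in WT and 301.8 and 294.1 in KO, a difference of -0.47 ± 0.25. Both sites were lower in each KO library than in each WT library without passing the test. The median of the 25 was -0.16, and -0.01 with equal medians.

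In the tricarboxylic acid cycle, 64 sites at 22 of 26 genes had a median of -0.15. At Mdh1, a malate dehydrogenase, 11:21549837-21550037 had 243.1 and 258.4 in WT and 198.6 and 158.4 in KO, a log2 difference of -0.50 ± 0.28. Among glycolytic genes Hk2, a hexokinase, had 523.1 and 372.1 in WT and 267.7 and 300.2 in KO at 6:82744577-82744777, a difference of -0.64 ± 0.26. Neither passed the test (limma adjusted p = 0.993), and the groups did not overlap at either.

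Enzymes that set and remove histone acetylation were no exception. The acetyltransferase list held 55 sites at 12 of 14 genes with a median of 0.00 with equal medians, and the deacetylase list 74 sites at 14 of 18 genes with -0.02. Kat2b, an acetyltransferase, had 98.5 and 90.6 in WT and 79.3 and 42.2 in KO at 17:53582338-53582538, a log2 difference of -0.70 ± 0.32. Ncoa2, a coactivator, had 36.9 and 63.9 in WT and 67.3 and 78.4 in KO at 1:13267201-13267401, a difference of 0.57 ± 0.32. Hdac7, a class IIa deacetylase, had 110.8 and 81.4 in WT and 55.4 and 51.3 in KO at 15:97816704-97816904, a difference of -0.82 ± 0.38. Kat2b and Hdac7 were lower, and Ncoa2 higher, in each KO library than in each WT library, and none passed the test (limma adjusted p = 0.993).

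The 26 gene lists used here named 419 genes, of which 343 had a site, 2016 sites in all. Of these sites 1 was called, that between Cd4 and Lag3, which the inhibitory receptors list holds through Lag3. With equal medians the lists' medians ran from -0.10 in the myeloid markers (15 sites) to 0.07 in the NK and innate lymphoid markers (33 sites), around the 0.00 of all sites. The Th17 list, 197 sites at 24 of 27 genes, had -0.06, with 1 site higher and 3 lower at an unadjusted p under 0.05. T cell activation (231 sites) had -0.04, with 0 higher and 5 lower at that level, and naive and memory T cells (307 sites) -0.04, with 2 and 5. Over all sites 1.39% were higher and 0.782% lower at that level with equal medians. Lists of cholesterol synthesis, NRF2 targets and interferon response had 0.02, 0.01 and 0.02.

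The sites of lowest p in these lists were named 2 to a list. Lif, a cytokine gene on the Th17 list, had 181.5 and 146.7 in WT and 87.0 and 75.4 in KO at 11:4257176-4257376, a log2 difference of -1.002 ± 0.36. Lef1, a regulator of naive T cells, had 166.1 and 146.7 in WT and 119.4 and 57.3 in KO at 3:131126543-131126743, a difference of -0.91 ± 0.31. Both had KO values below WT values and an adjusted p of 0.993 (limma). Nfkb1, a subunit of the activation-induced factor NF-κB, had 209.2 and 172.7 in WT and 139.8 and 72.4 in KO at 3:135720976-135721176, a difference of -0.91 ± 0.31. Fyn, a kinase of T cell receptor signalling, had 144.6 and 164.3 in WT and 95.5 and 70.9 in KO at 10:39418497-39418697, a difference of -0.90 ± 0.30. Txn1, an antioxidant protein, went the other way at 4:57958175-57958375, with 43.1 and 82.1 in WT and 113.4 and 84.5 in KO, a difference of 0.71 ± 0.32.

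Sites were also named by size, whether or not their gene was on a list. Those with at least the median signal and no overlap of the groups on either scale gave the following largest differences. None of these passed the test (limma adjusted p = 0.993 for each). Higher in KO, after the Mbnl1 site of the chromosome 3 stretch (0.75), came Klrb1f, a lectin-like receptor gene, with 101.5 and 131.3 in WT and 198.6 and 156.9 in KO, a log2 difference of 0.61 ± 0.28. Met, a receptor kinase gene, had 141.5 and 165.0 in WT and 234.5 and 200.6 in KO, a difference of 0.50 ± 0.26. The other 5 on this side, Kif19a, 2010109A12Rik, Megf10, Pde4b and Snx14, ran from 0.37 to 0.55.

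Lower in KO, Rbm20, a splicing factor gene, had 190.8 and 170.6 in WT and 131.3 and 69.4 in KO at 19:53825055-53825255, a log2 difference of -0.91 ± 0.27. Runx2, a transcription factor gene, had 495.4 and 463.4 in WT and 272.8 and 283.6 in KO at 17:44536633-44536833, a difference of -0.78 ± 0.27, with the replicates of each group close together. Gbp5, an interferon-induced GTPase gene, had 320.0 and 290.0 in WT and 179.9 and 184.0 in KO at 3:142496656-142496856, a difference of -0.74 ± 0.26. Lrrc32, which encodes a carrier of latent TGFβ, had 323.1 and 193.8 in WT and 156.0 and 143.3 in KO at 7:98534477-98534677, a difference of -0.74 ± 0.27. The remaining 4, at Foxn3, Chst11, Xdh and Ecm2, ran from -0.90 to -0.74.

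With the 4 acetate libraries fitted alone, 11 sites were higher (0.0277%) and 4 lower (0.0101%), and the 5 libraries whose column names start with ATAC2 gave 11 and 3 (0.00756%). The added higher sites were 3:60762949-60763149 and a site in Kcnab1, a potassium channel subunit gene, with 9.23 and 22.5 in WT and 51.2 and 64.9 in KO. The lower sites were at Il12rb2, Pde4d, Ccdc32 and 13:74913775-74913975, which has no protein-coding gene within 50 kb. Il12rb2 encodes a subunit of the interleukin-12 receptor that Th1 cells use, and 6:67383220-67383420, 6927 bp from it, had 70.8 and 76.5 in WT and 27.3 and 24.1 in KO. Pde4d, a phosphodiesterase gene, had 184.6 and 136.2 in WT and 77.6 and 54.3 in KO, and Ccdc32 had 240.0 and 214.1 against 123.6 and 96.5. The groups did not overlap at any of them, and with equal medians the 4 libraries alone gave 9 higher and 0 lower. In untreated WT, Il12rb2 had 66.2 and 64.3 in the ATAC1 libraries and 16.6 in the ATAC2 library. Pde4d had 114.9 and 97.5 against 31.0, and Ccdc32 97.4 and 101.5 against 76.3. That spread enters the main fit, where Il12rb2 and Pde4d had a limma adjusted p of 0.993. Its part in the calls was not tested.

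A last comparison set the genotype difference with acetate beside that without, using the interaction term of the same model. At the 9 called sites the untreated KO cells were also higher: the most raised Cd4 site, 6:124879835-124880035, had a mean of 18.1 ± 11.7 (SD, n = 3) in untreated WT and 425.0 ± 65.6 in untreated KO, a fold of 23.5, where the fold with acetate was 21.6. At 3:60795381-60795581 the untreated means were 5.15 ± 0.81 and 23.5 ± 4.55, a fold of 4.57 against 13.3 with acetate. This interaction did not pass the test (1.57 on the log2 scale, limma adjusted p = 0.0644, and 0.505 with equal medians). The 2 scales differ most here. As deposited, untreated KO was called lower at 89.6% of all sites and higher at 9.07%. The median log2 difference was -0.84 untreated against -0.15 with acetate, and the median interaction was 0.67. The interaction was called above 0 at 19.5% of all sites and below 0 at 3.61%. With equal medians its median was 0.08, with calls at 0.27% and 6.33%. How the sites of the table were chosen is not given. Their names start with DBS, and as deposited nearly all were called in the untreated comparison, as given above. If they were chosen for an untreated difference, that choice would favour a smaller difference with acetate. All sites would then also be no neutral background. Neither was tested. Many of the 61 described sites tested for interaction were picked by their difference with acetate, which is part of the interaction. Counts over them are therefore no independent result. Of the 61, 11 were called as deposited, all above 0, and of the 9 called sites 2. With equal medians 2 of the 61 were called, both below 0, and 0 of the 9. Those 2 were Met (-0.86, limma adjusted p = 0.0384) and Gbp5 (-0.82, adjusted p = 0.0213). Gbp5 had been picked as lower in KO with acetate, a choice that favours an interaction below 0, and Met as higher. All untreated KO libraries have column names that start with ATAC1 and all acetate libraries names that start with ATAC2, so acetate and this prefix cannot be told apart in the interaction.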

How the data were processed

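The authors deposited 1 table of signal, here reads per site divided by 1 factor per library, for 39657 sites on GRCm38 and 10 libraries. The making of the factors and the choice of sites are not given in the sources used here. The submitters' processing notes name BWA 0.7.16a and Genrich, DiffBind 3.6.1 with DESeq and DESeq2, Picard 2.10.9, deepTools 3.5.1 and FastQC 0.11.5. Every value is a whole multiple of its library's step (tolerance 0.001 reads), which gave the reads quoted as depth. The sample titles number the KO acetate libraries 1 and 2 and the columns 1 and 3, so the columns were placed by group.

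With limma 3.58.1 in R 4.3.3, log2(value + 1) of the signal was fitted with a trended, robust prior. The model held 4 group means over the 10 libraries, which share 1 spread, and p-values were adjusted over all sites (Benjamini-Hochberg). The column prefix was not in the model. Untreated WT held 2 ATAC1 libraries and 1 ATAC2 library, so a difference between them enters the shared spread. The count test planned for counts was not used, since the values are normalized. Model code was tested on simulated data. Folds are ratios of mean signal, ± is SE for log2 differences and SD for means. Gene bodies and promoter sequences are RefSeq's on GRCm38.p6, and promoters had entries for 18 of the 20 genes looked up. Library totals were tested by two-sided exact permutation (scipy 1.17.1).

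Named were every called site, 18 fixed loci by the site of lowest p, the 8 largest uncalled differences each way at or above the median signal, 1 per gene, and the 2 genes of lowest p in each list, of which examples are given. Results on some genes fixed for naming are not reported here. Sites called under other fits, the chromosome 3 stretch and the sites shown with promoters were chosen after their values were seen. The members, lists and rules were chosen with earlier results of these data known.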

Additional observations from a re-analysis of the deposited data

Results flagged for a closer look

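At 11 of the 61 described sites tested, the log2 difference KO minus WT was called higher with acetate than without. The test was the interaction of the deposited values (limma, adjusted over all sites). This was so at 19.5% of all sites, so the count does not set the described sites apart. Many of the 61 were picked by their difference with acetate, which is part of the interaction. At the Cd4 site 6:124885264-124885464 KO was higher in both conditions, by 2.79 with acetate and 1.69 without, an interaction of 1.10 (adjusted p = 0.00469). The site between Cd4 and Lag3 also had KO higher in both, by 2.17 and 1.37, an interaction of 0.80 (0.0472). At the other 9, KO was lower without acetate, and with acetate it was less so or above WT. At Il17f, 1:20787081-20787281, the differences were -0.35 with acetate and -1.42 without (interaction 1.06, adjusted p = 0.0411), and at the Il23r promoter site -0.29 and -1.49 (1.20, 0.0175). At Pdha1 they were 0.12 and -0.94 (1.06, 0.0498), and at Tbx21 0.28 and -1.01 (1.29, 0.0320). They were 0.49 and -0.79 at 2010109A12Rik (1.29, 0.0159), 0.39 and -0.87 at Pde4b (1.26, 0.0162), and 0.57 and -0.71 at Ncoa2 (1.28, 0.0268). At Txn1 they were 0.71 and -0.90 (1.61, 0.00995), and at 6:124864456-124864656, outside the opposite end of Cd4, 0.30 and -1.98 (2.28, 0.0132). With equal medians none of the 11 was called, with adjusted p from 0.137 at the last of these to 0.821 at the site near Lag3. With cyclic loess the Cd4 site at 6:124885264-124885464 alone of the 11 was called (0.71, adjusted p = 0.0208).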

How the results depend on the processing

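The count of 9 higher sites held with equal medians, median-of-ratios factors, total signal, cyclic loess, a pseudocount of 5 and a mean signal of at least 20, and was 8 with a pseudocount of 0.5 and 2 without the sites within 50 kb of Cd4. Leaving out 1 library gave 8 to 34 higher and 0 lower, and with equal medians, an alternative chosen after seeing the data, 7 to 18 and 0. The 34 and 18 arose without WT acetate 2: the 34 held all 9 sites, and 22 of the 25 added had at most 2 reads in WT acetate 1. Lower sites were 4 with the acetate libraries alone and 3 with the 5 ATAC2 libraries. The median log2 difference, -0.15, became 0.0036 with equal medians, 0.0042 with median-of-ratios factors, 0.0137 with total signal, 0.0035 with cyclic loess and 0.0036 with the acetate libraries alone at equal medians. Leaving out 1 library gave -0.23 to 0.023. Of the 9 sites, 2 had a called interaction as deposited, 0 with equal medians, 0 with median-of-ratios factors, 1 with total signal and 1 with cyclic loess.

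Over all alternatives the 9 sites kept their call in 157 of 164 values. The call at 3:60790238-60790438 was lost in 5 leave-one-out fits, that at 3:60795381-60795581 without KO acetate 1 at equal medians, and that at 6:124879835-124880035 with a pseudocount of 0.5. Among other named sites 17 of 1463 values turned sign. Acss2 (-0.08) gave 0.075 with equal medians, 0.076 with median-of-ratios factors, 0.085 with total signal, 0.047 with cyclic loess and 0.075 with the acetate libraries alone at equal medians. Acly (-0.17) gave 0.0072 with cyclic loess. Across leave-one-out fits the sign turned in Acss2 (-0.14 to 0.18), Acly (-0.39 to 0.17), Pdha1 (-0.12 to 0.49), Tbx21 (-0.057 to 0.71), Slc3a2 (-0.63 to 0.018) and Runx3 (-0.97 to 0.0023). The cause was not tested. With 1 library left in a group, it is assumed to vary like the others.

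No paired analysis was possible because the WT acetate columns are numbered 1 and 2 and the KO acetate columns 1 and 3, which share 1 number. The planned edgeR fits were not run, since the values are not counts. WT acetate 1 held a median of 57 reads per site, which limits what was resolved at weak sites.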
